A study of Mus musculus with 6 samples.

Results

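The RNA levels of 35 genes for broadly expressed splicing proteins were compared between ovaries labelled WT and ovaries labelled Hnrnpl-null. The genes were taken by name and are all among the 25239 rows of the deposited count table. They comprise 20 heterogeneous nuclear ribonucleoprotein (hnRNP) genes, counting Pcbp1 and Pcbp2, 12 genes of serine/arginine-rich (SR), SR-related and Tra2 proteins, and U2af1, U2af2 and Sf3b1. Hnrnpl, Hnrnpll and the PTB family were left out by the rule that names them. All 35 genes passed the filter on low counts. The libraries came from total RNA of C57BL/6 mouse ovaries at E18.5 (the embryonic day), dispersed with Liberase and DNase. Of the 6 libraries, 3 have the genotype WT and 3 have the genotype Hnrnpl-null, with titles that carry the letters CKO. The Cre line, the deleted exon and any pooling of animals are not given in the sample labels. The name of the deposited table carries the term stra8, which the labels do not explain. Where libraries of 1 group were not drawn from separate mice, the p-values below measure technical spread only.

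Most introns begin and end with short conserved signals that are not enough to define an exon. SR proteins carry RNA recognition motifs and a domain rich in arginine-serine dipeptides, and they bind exonic enhancers and help recruit the U1 particle and the U2 auxiliary factor (U2AF). The hnRNPs coat nascent transcripts and often act against SR proteins at the same exons. U2AF, a dimer of the proteins encoded by U2af1 and U2af2, reads the end of the intron, and SF3B1 then holds the U2 particle at the branch point. Many of these genes tune their own mRNA through exons that lead to its decay, and those exons are not told apart in counts per gene.

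Most start sites of these genes share a sequence feature. The genes were chosen as broadly expressed, and the tested genes set beside them were not matched in breadth or level. In windows of 300 bases around the start, mostly before it, taken from RefSeq on GRCm38.p6 (the same chromosomes as mm10), 33 of the 35 genes had an entry. Each gene has 1 window, at the start nearest its most upstream position in the deposited count table, and other starts are not described. The CpG dinucleotide was present at more than 0.6 of the number given by the C and G content in 32 of 33 windows (97.0%), against 68.6% of 11667 windows of tested genes. The median ratio was 1.01 for the splicing genes and 0.747 for tested genes. The motif TATAAA, on either strand, was in 12.1% of the splicing gene windows and 7.30% of tested gene windows. The corresponding shares were 51.5% and 38.5% for CCAAT, 15.2% and 7.66% for the ETS motif CCGGAAGT, and 24.2% and 21.5% for the SP1 motif GGGGCGGGG. They were 3.03% and 5.21% for the NRF1 motif GCGCATGC and 6.06% and 4.62% for the YY1 motif ATGGCGGC. In the order named, the splicing gene windows with a match numbered 4, 17, 5, 8, 1 and 2. No 2 of the motifs contain each other, and a match describes letters only. The 4 windows below are those of the 3 genes that some test described later called (Hnrnpa0, Hnrnpab and Srsf1) and of Hnrnpf. The Hnrnpf window is the 1 not above 0.6, and each CpG is in capitals.
Hnrnpa0, chr13:58128507-58128806, minus strand: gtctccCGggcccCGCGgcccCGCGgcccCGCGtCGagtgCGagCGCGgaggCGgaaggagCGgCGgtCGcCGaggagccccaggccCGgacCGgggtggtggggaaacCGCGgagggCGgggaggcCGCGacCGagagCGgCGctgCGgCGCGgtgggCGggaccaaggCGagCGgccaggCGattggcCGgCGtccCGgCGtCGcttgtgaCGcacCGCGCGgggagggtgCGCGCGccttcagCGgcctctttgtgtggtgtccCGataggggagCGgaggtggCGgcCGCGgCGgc
Hnrnpab, chr11:51606832-51607131, minus strand: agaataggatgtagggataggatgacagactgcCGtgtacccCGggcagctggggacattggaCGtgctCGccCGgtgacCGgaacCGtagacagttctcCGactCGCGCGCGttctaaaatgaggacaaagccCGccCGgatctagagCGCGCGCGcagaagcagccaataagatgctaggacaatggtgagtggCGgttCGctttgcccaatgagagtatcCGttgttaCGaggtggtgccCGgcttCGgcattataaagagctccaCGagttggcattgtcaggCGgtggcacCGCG
Srsf1, chr11:88047123-88047422, plus strand: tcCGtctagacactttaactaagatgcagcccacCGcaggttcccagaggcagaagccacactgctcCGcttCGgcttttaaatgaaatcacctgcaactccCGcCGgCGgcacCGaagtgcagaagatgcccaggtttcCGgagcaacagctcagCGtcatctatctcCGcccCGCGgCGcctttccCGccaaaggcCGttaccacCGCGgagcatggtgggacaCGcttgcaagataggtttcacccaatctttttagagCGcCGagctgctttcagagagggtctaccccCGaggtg
Hnrnpf, chr6:117900090-117900389, plus strand: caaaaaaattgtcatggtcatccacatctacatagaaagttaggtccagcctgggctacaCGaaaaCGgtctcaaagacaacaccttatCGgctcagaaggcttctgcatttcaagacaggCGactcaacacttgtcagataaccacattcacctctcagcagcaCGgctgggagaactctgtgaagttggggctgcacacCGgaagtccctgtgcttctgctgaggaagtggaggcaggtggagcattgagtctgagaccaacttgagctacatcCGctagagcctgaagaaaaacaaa
The Hnrnpa0 window holds 52 CpGs, the most of the 33 windows, and the Hnrnpf window holds 7, the fewest.

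Some of the genes share exonic bases with other genes in the deposited table, Hnrnpa1 the most. That table places the exons of Gm10052, and all but the last exon of Gm5643, on the exons of Hnrnpa1 on chromosome 15, so that 80.3% of the exonic bases of Hnrnpa1 belong to more than 1 gene. GENCODE M21 annotates both as processed pseudogenes elsewhere, Gm10052 on chromosome 9 (123689233 to 123690192) and Gm5643 on chromosome X (142297565 to 142298530). The Gm10052 transcript was identical to Hnrnpa1 over all 960 of its bases. The Gm5643 transcript was identical at 943 of 955 aligned bases (98.7%). The first 90 bases of that alignment, which lie in the coding part of Hnrnpa1, are shown because a read from them cannot easily be assigned to 1 gene, with the mismatches in capitals.
Hnrnpa1: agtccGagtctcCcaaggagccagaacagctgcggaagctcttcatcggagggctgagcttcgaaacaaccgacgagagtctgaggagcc
Gm5643: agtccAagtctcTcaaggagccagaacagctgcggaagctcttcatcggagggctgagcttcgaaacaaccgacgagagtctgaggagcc
Only 2 of the 90 bases differ. In the table Gm10052 had 0 counts in all 6 libraries, Gm5643 had 0 to 6 counts and Hnrnpa1 had 6 to 125 counts.

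Library totals were 8949781 to 22401419 counts. Rn45s, the ribosomal RNA precursor, made up 83.0% of all counts for replicate 1 of WT and 86.1% for replicate 3 of Hnrnpl-null. It made up 18.6% to 36.0% for the remaining 4. The 2 libraries rich in Rn45s hold fewer counts for all other genes (3818414 and 1757572, against 5727264 to 10980179). They also stood apart in a principal component analysis, which finds the main axes of spread between libraries. Hnrnpl-null replicate 3 was at 112 on axis 1 (53.7% of variance), against -36.1 to -5.91 for the rest. WT replicate 1 was at 54.4 on axis 2 (20.8%), against -40.6 to 11.7. The part of depth in this was not tested. Hnrnpl itself measured 162 ± 14.8 CPM with the WT genotype and 184 ± 25.5 CPM with the Hnrnpl-null genotype (SD, n = 3 per group, edgeR adjusted p = 0.50). CPM, the count scaled to sequencing depth, rests here on library sizes scaled by the trimmed mean of M values (TMM). Its count over the whole gene does not separate the groups and so does not check the labels, which are used as given. The cell type is labelled oocyte, but markers of pregranulosa cells, stroma, endothelium and surface epithelium were present in all 6 libraries. All 12 oocyte and germ cell markers were lower in Hnrnpl-null (summed level 454 to 468 CPM against 151 to 162 CPM). All 10 leukocyte and myeloid progenitor markers were higher (22.1 to 24.0 against 629 to 812 CPM). Mpo (means of 0.437 and 451 CPM) made up most of that Hnrnpl-null sum. Of the mast cell markers 6 of 7 tested were higher (sum of all 8 listed, 249 to 263 against 888 to 1023 CPM). The uncalled Kit went from a mean of 97.0 CPM in WT to 88.7 CPM in Hnrnpl-null. Also higher were 4 of 7 stromal markers (5990 to 6493 against 8931 to 10311 CPM) and 2 of 5 surface epithelium markers (331 to 401 against 417 to 559 CPM). Of 10 pregranulosa markers only Kitl was called, as higher (summed level 504 to 539 against 554 to 614 CPM). Kitl itself went from a mean of 78.4 CPM in WT to 174 CPM in Hnrnpl-null, which carries the rise in that sum. Of the uncalled pregranulosa markers, Foxl2, Wnt4 and Amhr2 had higher estimates in Hnrnpl-null and the rest lower ones. The stromal markers called were Col1a1, Col1a2, Col3a1 and Dcn, and the collagen genes made up most of the stromal sum. Pdgfra, Nr2f2 and Tcf21 were not called (log2 fold changes of 0.15, -0.04 and -0.16). No macrophage, erythroid or endothelial marker was called. Several of these marker genes were picked with earlier results of these libraries known. In bulk libraries fewer cells of a type and less RNA per cell cannot be told apart, and the part of this change in cell markers in the values below was not tested.

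None of the 35 splicing protein genes was called as changed. At a Benjamini-Hochberg adjusted p below 0.05 in edgeR's quasi-likelihood test, 0 were higher, where 2.67% of the 14849 tested genes were, and 0 were lower, where 1.79% were. The smallest adjusted p among the 35 was 0.12, for Hnrnpab and for Hnrnpa0. An unadjusted p below 0.05 was reached by 6 of the 35 with a ratio of Hnrnpl-null to WT above 1 (17.1%, against 9.97% of tested genes), namely Hnrnpa0, Hnrnpab, Hnrnpc, Hnrnpf, U2af1 and U2af2. It was reached by 0 with a ratio below 1 (against 8.53% of tested genes). Over both directions, 6 of 35 is a share like that of all tested genes, 2746 of 14849. The values of the 3 libraries of each group lay apart, higher in Hnrnpl-null, for 7 genes (20%, against 12.4% of tested genes), and lower for 0 (against 13.2% of tested genes). The 7 were Hnrnpa0, Hnrnpab, Hnrnpc, Hnrnpf, Srsf5, Srsf6 and U2af2.

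The estimated differences were small in either direction. The log2 fold changes ran from -0.22 (Tra2a) to 0.44 (U2af1), with a median of 0.10, against a median of -0.01 over all tested genes. The median size regardless of sign was 0.11, against 0.26 over all tested genes. The estimated ratio was above 1 for 28 of the 35 genes (48.8% of all tested genes). That number depends on the scaling and on single libraries: it was 20 with the Rn45s row left out and library totals unscaled, 21 without WT replicate 2 and 30 with the Rn45s row left out before TMM scaling. The 95% interval of the ratio lay within a 1.5-fold change in both directions for 27 genes (30.5% of all tested genes), and within a 2-fold change for 34 genes (61.8%). These genes were counted more deeply than most, with a median WT level of 68.2 CPM against 10.7 CPM over all tested genes, and that narrows intervals. The 8 genes whose interval reached past 1.5-fold were Hnrnpa1, Hnrnpa3, Hnrnpm, Hnrnpf, Hnrnph3, Srsf9, U2af1 and U2af2. Only the Hnrnpa1 interval reached past 2-fold.

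**Figure D1:**
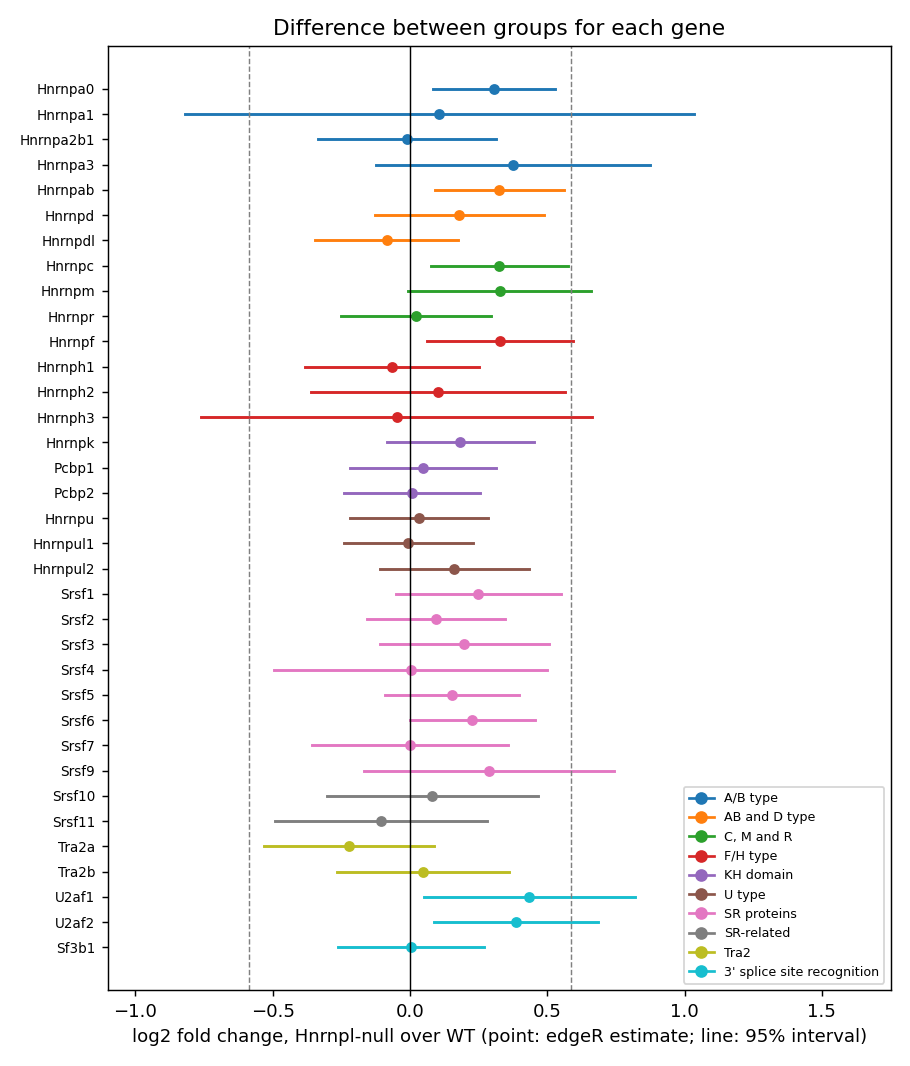
Log2 fold change of Hnrnpl-null over WT (horizontal axis) for each of the 35 genes (vertical axis), with points for the edgeR estimate, lines for the 95% interval and colours for the role of the protein. The solid line marks no difference and the dashed lines a 1.5-fold change in either direction. The estimates lie between -0.22 and 0.44, and most intervals lie between the dashed lines.

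The levels differed far more between the genes than between the groups. Per kilobase of exon (RPKM, CPM divided by the exonic length in the table), Hnrnpk stood first in WT at 61.9 ± 3.29 RPKM, followed by Srsf2 at 50.5 ± 1.82, Pcbp1 at 49.3 ± 5.74, Pcbp2 at 49.2 ± 3.61 and Srsf5 at 47.0 ± 4.67 RPKM (SD, n = 3). From Srsf2 to Srsf5 the means differ by less than the SD of Srsf5, and their order is not resolved. At the other end were Srsf4 at 3.48 ± 0.232, Hnrnpa3 at 2.84 ± 0.974, Hnrnph3 at 2.32 ± 0.528 and Hnrnpa1 at 1.74 ± 0.918 RPKM. Hnrnpk and Srsf2 stood first and second in both groups, and the genes from Hnrnph2 down to Hnrnpa1 stood in the same order in both. Hnrnpk was above 98.6% of tested genes in RPKM and Hnrnpa1 was above 30.2%.

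The 4 lowest genes per length were also the ones with much of their exonic sequence shared in the table. The shared part of the exonic bases was 80.3% for Hnrnpa1 (with Gm10052 and Gm5643), 61.0% for Hnrnph3 (with Rufy2), 43.9% for Srsf4 (with Gm12992) and 27.9% for Hnrnpa3 (with Gm6793, which had 0 counts in all 6 libraries). Pcbp2 shared 53.0% with Map3k12 and was the fourth highest in WT. The overlap was 2.12% for Hnrnpab, 3.96% for Hnrnpk and 5.18% for Hnrnpu. The other 27 genes overlapped no gene. The setting for reads that fall on more than 1 gene is not given in the sources used here, and its part in these levels was not tested. Shared sequence was also counted in GENCODE M21, as stretches of 50 bases found in transcripts of any other gene, whether overlapping or elsewhere in the genome. Their share was 61.9% of all such stretches for Hnrnpf, 39.5% for Srsf4, 31.5% for Pcbp2, 28.2% for Hnrnpa1, 27.1% for Hnrnpa3, 23.8% for Hnrnpab, 21.7% for U2af1 and 20.7% for Srsf2, and 0% for Hnrnpa0, Srsf6, Srsf9 and Tra2a. For Srsf4 the only partner was the overlapping Gm12992, and most of the share of Pcbp2 (27.2%) was with the overlapping Map3k12 and of Hnrnpab (23.7%) with the overlapping Phykpl. For Hnrnpf, Hnrnpa1, Hnrnpa3 and U2af1 most partners were pseudogenes. The levels of genes with high shares, Hnrnpf and Hnrnpab included, are uncertain.

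**Figure D2:**
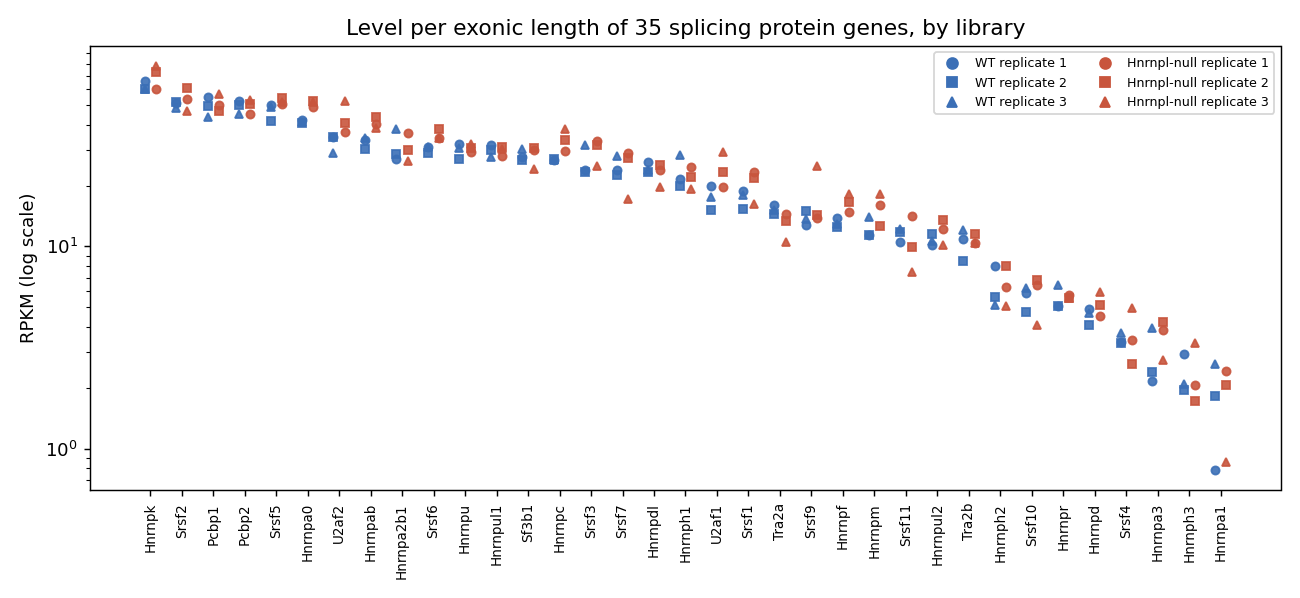
Level per exonic length (vertical axis, RPKM, log scale) of the 35 genes, ordered by their WT mean (horizontal axis), with 1 point per library, blue for WT, red for Hnrnpl-null and shapes for replicates. Levels run from 61.9 RPKM (Hnrnpk, WT mean) to 1.74 RPKM (Hnrnpa1), and points of both colours mix for most genes.

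Among the A/B type hnRNPs, which carry paired RNA recognition motifs and commonly silence exons, Hnrnpa0 had the smallest p. It measured 113, 109 and 110 CPM across the WT libraries and 131, 141 and 139 CPM across the Hnrnpl-null ones, given here and below in the order of replicates 1 to 3. The 3 Hnrnpl-null libraries all lay above the 3 WT libraries. The ratio was 1.24 (95% interval 1.06 to 1.44, log2 fold change 0.31 ± 0.10 SE), with an edgeR adjusted p of 0.12. Hnrnpa2b1 was at 65.7, 70.0 and 92.3 CPM across the WT libraries and 88.2, 72.7 and 64.4 CPM across the Hnrnpl-null ones. These groups overlapped over most of their range, with a ratio of 0.993 (0.794 to 1.24). Hnrnpa3 was at 11.3, 12.5 and 20.7 CPM across the WT libraries and 20.2, 22.0 and 14.4 CPM across the Hnrnpl-null ones, with 1 WT library among the Hnrnpl-null values (ratio 1.30, 0.917 to 1.83). Hnrnpa1 was at 1.71, 3.98 and 5.72 CPM across the WT libraries and 5.27, 4.49 and 1.87 CPM across the Hnrnpl-null ones. In each group its lowest value was in the library richest in Rn45s, with 13 and 6 counts there, and its interval of 0.567 to 2.05 shows only that a change past about that range was not seen at this depth.

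Hnrnpab, an hnRNP with roles in mRNA transport and repression, had the smallest p of the 35. It was at 85.1, 77.0 and 87.3 CPM across the WT libraries and 103, 111 and 97.8 CPM across the Hnrnpl-null ones. The groups lay apart, with a ratio of 1.25 (1.07 to 1.47) and an edgeR adjusted p of 0.12. Hnrnpd, which encodes the AU-rich element binding protein AUF1, was at 33.2, 27.9 and 32.0 CPM across the WT libraries and 30.7, 35.1 and 40.6 CPM across the Hnrnpl-null ones (ratio 1.13, 0.916 to 1.40). Its relative Hnrnpdl was at 74.8, 66.5 and 68.4 CPM across the WT libraries and 68.1, 71.8 and 56.2 CPM across the Hnrnpl-null ones (ratio 0.943, 0.787 to 1.13). Both overlapped between groups.

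Hnrnpc encodes the core protein that binds uridine tracts and competes with U2AF at cryptic splice sites. Its WT values were nearly equal at 108, 109 and 108 CPM, against 120, 135 and 154 CPM with the Hnrnpl-null genotype. The groups lay apart, but the Hnrnpl-null values spread widely and the ratio of 1.25 (1.05 to 1.49) had an edgeR adjusted p of 0.14. Hnrnpm, a splicing regulator that binds GU-rich RNA, was at 28.8, 28.9 and 35.6 CPM across the WT libraries and 40.7, 32.1 and 45.9 CPM across the Hnrnpl-null ones (ratio 1.25, 0.997 to 1.58). Only Hnrnpl-null replicate 2 fell within the WT range. Hnrnpr was at 41.6, 41.5 and 52.4 CPM across the WT libraries and 47.1, 45.2 and 45.3 CPM across the Hnrnpl-null ones, all of the latter inside the WT range (ratio 1.01, 0.840 to 1.23).

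The F/H proteins bind runs of G. Hnrnpf was at 41.4, 37.3 and 38.6 CPM across the WT libraries and 44.1, 49.6 and 54.4 CPM across the Hnrnpl-null ones. Its groups lay apart, with a ratio of 1.26 (1.05 to 1.51) and an edgeR adjusted p of 0.16. Its relatives overlapped between groups. Hnrnph1 had a ratio of 0.956 (0.768 to 1.19), Hnrnph2 of 1.07 (0.780 to 1.48) and Hnrnph3 of 0.968 (0.591 to 1.58).

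The KH domain proteins bind C-rich RNA, and Hnrnpk also acts in transcription. Hnrnpk was at 199, 182 and 182 CPM across the WT libraries and 183, 221 and 236 CPM across the Hnrnpl-null ones (ratio 1.14, 0.944 to 1.37). Pcbp1, an intronless gene, was at 94.2, 84.2 and 74.6 CPM across the WT libraries and 85.2, 79.8 and 97.5 CPM across the Hnrnpl-null ones (ratio 1.03, 0.861 to 1.24). Pcbp2 was at 156, 150 and 135 CPM across the WT libraries and 135, 150 and 158 CPM across the Hnrnpl-null ones, with nearly the same range in both groups (ratio 1.01, 0.847 to 1.19).

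Hnrnpu, or scaffold attachment factor A, binds nuclear RNA and chromatin. It was at 244, 205 and 232 CPM across the WT libraries and 221, 231 and 244 CPM across the Hnrnpl-null ones, a ratio of 1.02 (0.859 to 1.22). Hnrnpul1, a relative linked to the DNA damage response, was at 126, 119 and 110 CPM across the WT libraries and 111, 122 and 121 CPM across the Hnrnpl-null ones, a ratio of 0.996 (0.847 to 1.17). Hnrnpul2 had a ratio of 1.12 (0.927 to 1.35). All 3 overlapped between groups.

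None of the 8 SR protein genes was called in the main edgeR test, where 2.67% of tested genes were called higher and 1.79% lower. All 8 estimated ratios were above 1, but those of Srsf4 and Srsf7 only just so. Both were below 1 with upper-quartile scaling (log2 fold change -0.01 for Srsf4 and -0.02 for Srsf7). The estimate for Srsf9 was below 1 without both libraries rich in Rn45s (-0.02) and that for Srsf2 was just below 1 without Hnrnpl-null replicate 2. Srsf6, which promotes exon inclusion through purine-rich enhancers, was at 110, 103 and 110 CPM across the WT libraries and 122, 135 and 121 CPM across the Hnrnpl-null ones. The groups lay apart, with a ratio of 1.17 (0.999 to 1.37) and an edgeR adjusted p of 0.27. Srsf5 was at 83.5, 69.2 and 81.4 CPM across the WT libraries and 84.1, 90.1 and 85.6 CPM across the Hnrnpl-null ones, apart by a narrow margin (ratio 1.11, 0.939 to 1.32). Srsf1, the founding SR protein, was at 105, 85.1 and 99.4 CPM across the WT libraries and 130, 122 and 90 CPM across the Hnrnpl-null ones. Hnrnpl-null replicate 3, one of the libraries rich in Rn45s, lay within the WT range while the other 2 lay above it (ratio 1.19, 0.965 to 1.46). Some tests without both libraries rich in Rn45s, given below, called Srsf1 higher. Srsf7, which also links splicing to mRNA export, followed the same order within the group, at 79.3, 75.3 and 47.2 CPM across the Hnrnpl-null libraries against 65.7, 62.3 and 76.5 CPM across the WT ones (ratio 1.0, 0.782 to 1.28). Srsf9 went the other way in that library, at 17.3, 18 and 31.2 CPM across the Hnrnpl-null libraries against 15.9, 18.7 and 17.2 CPM across the WT ones (ratio 1.22, 0.891 to 1.68). Srsf2, which sits at exonic enhancers, had a ratio of 1.07 (0.898 to 1.27), Srsf3, the smallest SR protein and an export adaptor, of 1.15 (0.926 to 1.42) and Srsf4 of 1.0 (0.710 to 1.42).

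Srsf10, an SR-related protein that represses splicing when dephosphorylated, was at 32.3, 26.1 and 34.2 CPM across the WT libraries and 35.3, 37.4 and 22.5 CPM across the Hnrnpl-null ones (ratio 1.06, 0.812 to 1.38). Srsf11 was at 45.1, 50.2 and 52.4 CPM across the WT libraries and 60.2, 42.8 and 31.9 CPM across the Hnrnpl-null ones (ratio 0.930, 0.712 to 1.22). For both, Hnrnpl-null replicate 3 was the lowest of all 6 libraries. The Tra2 proteins bind GAA-rich enhancers. Tra2a had the lowest ratio of the 35 genes, 0.857 (0.692 to 1.06, edgeR adjusted p = 0.45), at 34.1, 31.0 and 32.5 CPM across the WT libraries and 31.0, 28.5 and 22.5 CPM across the Hnrnpl-null ones. Tra2b was at 40.2, 31.0 and 44.4 CPM across the WT libraries and 38.2, 42.5 and 38.1 CPM across the Hnrnpl-null ones (ratio 1.03, 0.832 to 1.28).

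The 2 highest ratios in the main test belonged to the subunits of U2AF, with intervals that overlap those of other members. U2af2, which binds the polypyrimidine tract, was at 76.7, 76.1 and 64.0 CPM across the WT libraries and 81.0, 89.4 and 115 CPM across the Hnrnpl-null ones. The groups lay apart, with a ratio of 1.31 (1.06 to 1.61) and an edgeR adjusted p of 0.15. U2af1, which reads the terminal AG, was at 19.5, 14.9 and 17.3 CPM across the WT libraries and 19.4, 22.9 and 28.7 CPM across the Hnrnpl-null ones. The groups met at 19.4 and 19.5 CPM, with a ratio of 1.35 (1.04 to 1.77) and an edgeR adjusted p of 0.21. For both genes the highest value was in Hnrnpl-null replicate 3. Leaving out any 1 library, the log2 fold change of U2af2 (0.39 in the main test) ran from 0.24 to 0.49. That of U2af1 (0.44) was 0.31 without Hnrnpl-null replicate 3, the lowest of its alternatives. Sf3b1 was at 171, 166 and 188 CPM across the WT libraries and 186, 189 and 150 CPM across the Hnrnpl-null ones (ratio 1.0, 0.834 to 1.21), with the lowest value in that library.

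**Figure D3:**
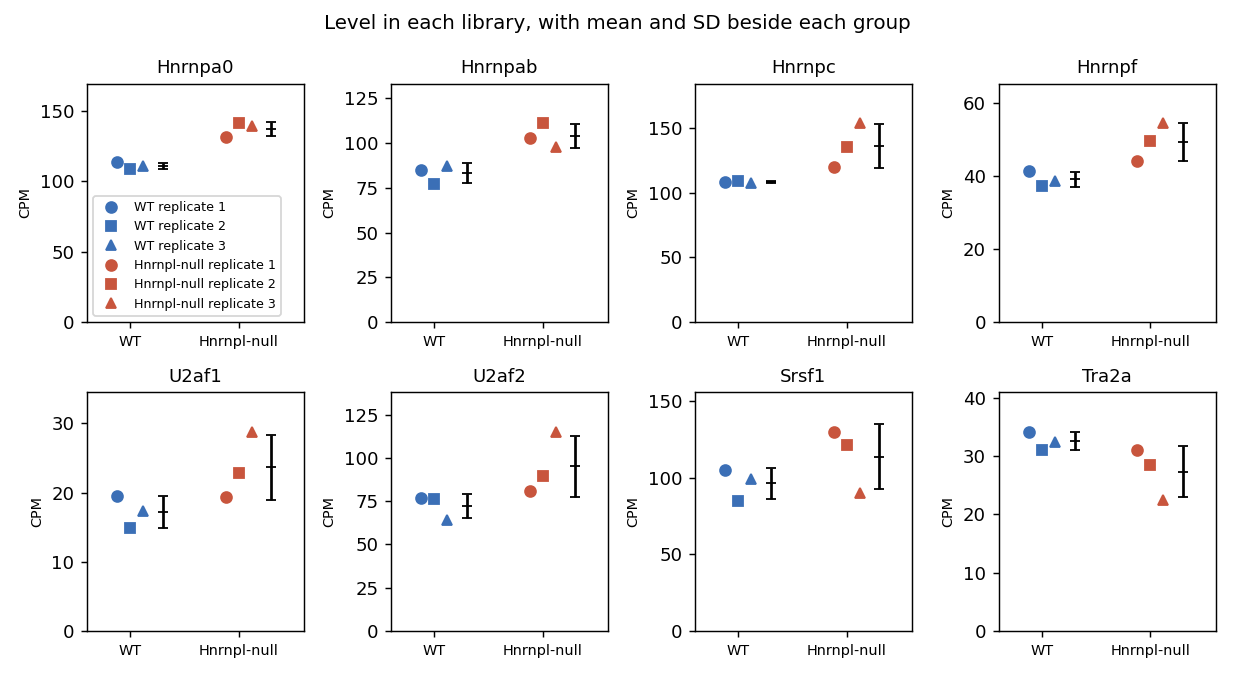
CPM (vertical axis, from 0) of 8 genes in each library, with colours for the group and shapes for the replicate, and the mean with SD (n = 3) beside each group. The 8 include the 6 genes with an unadjusted edgeR p below 0.05 and do not stand for the 35. For Hnrnpa0, Hnrnpab, Hnrnpc, Hnrnpf and U2af2 the red points lie above all blue points. For Srsf1 Hnrnpl-null replicate 3 (90 CPM) lies among the WT values. Over all 35 genes the groups lay apart for 7, all higher (12.4% of tested genes lay apart higher and 13.2% lower).

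Ratios between 2 genes of 1 library need no scaling between libraries, and 6 pairs of related proteins were compared in this way, per exonic length. The ratio of U2af1 to U2af2 was 0.568, 0.438 and 0.605 in WT and 0.535, 0.572 and 0.559 in Hnrnpl-null, so the Hnrnpl-null values lay inside the WT range. Tra2a to Tra2b was 1.46, 1.72 and 1.26 in WT and 1.40, 1.16 and 1.02 in Hnrnpl-null, a difference of -0.32 in log2. Hnrnpd to Hnrnpdl was 0.186, 0.176 and 0.196 in WT and 0.189, 0.205 and 0.303 in Hnrnpl-null, a difference of 0.29. For the latter 2 the two-sided exact permutation test gave p = 0.20 (0.60 adjusted over the 6 pairs), and 0.10 is the smallest p that 3 libraries against 3 allow. The pairs Pcbp1 to Pcbp2, Hnrnph1 to Hnrnph2, Hnrnpul1 to Hnrnpul2 and U2af1 to U2af2 had differences of 0.05, -0.11, -0.15 and 0.06 (exact p of 0.50 to 1).

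A few calls appeared under other tests, each of them higher in Hnrnpl-null. DESeq2 on the same genes called 2 of the 35, Hnrnpa0 and Hnrnpab (adjusted p = 0.037 and 0.047), where it called 4.33% of all tested genes higher. Limma-voom called the same 2 (adjusted p = 0.033 and 0.027), where it called 5.22% higher. Without both libraries rich in Rn45s, edgeR called Srsf1 alone (log2 fold change 0.45, adjusted p = 0.045), where 3.29% of 15636 tested genes were called higher. With those 4 libraries DESeq2 called Srsf1 (adjusted p = 0.012) and Hnrnpab (0.048), against 3.68% of tested genes, and limma-voom called the same pair (0.019 and 0.049), against 3.96%. With library totals outside Rn45s in place of TMM on the same 4 libraries, edgeR called no member, and the adjusted p of Srsf1 was 0.10. Those last 3 tests were added after the data had been seen. None of the 35 genes was called lower in the main test, where 1.79% of tested genes were. None was in any of 23 alternatives, which called 0.00673% (unscaled library totals) to 3.35% (limma-voom) of tested genes lower. The alternative at an adjusted p below 0.01 reuses the main fit and could not add a call. Leaving out any 1 library gave no call, where 0.948% to 3.38% of tested genes were called higher and 0.68% to 2.04% lower. The smallest edgeR adjusted p was then 0.072 (Hnrnpab, without Hnrnpl-null replicate 3).

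The 2 other gene lists of the splicing machinery gave no call either. Of 72 genes of the core spliceosome (proteins of the small nuclear ribonucleoproteins, their helicases and associated factors), 71 were tested and 0 were called in either direction by edgeR, DESeq2 or limma-voom, while 2 had an unadjusted edgeR p below 0.05. Over all tested genes edgeR called 2.67% higher and 1.79% lower, and 2746 of 14849 had an unadjusted edgeR p below 0.05. DESeq2 called 4.33% of them higher and 2.98% lower, and limma-voom 5.22% and 3.35%. The median log2 fold change of the core list was 0.03. The smallest p belonged to Prpf19, a ubiquitin ligase of the spliceosome, at 76.7 ± 3.26 CPM with the WT and 92.5 ± 5.44 CPM with the Hnrnpl-null genotype (log2 fold change 0.27 ± 0.11 SE, edgeR adjusted p = 0.19). Next was Zrsr2, which recognises the end of minor introns, at 16.5 ± 3.18 and 11.9 ± 2.62 CPM (-0.51 ± 0.22 SE, edgeR adjusted p = 0.23). Of 19 genes that modify, import or work beside SR proteins and hnRNPs, 0 were called by the same 3 tools and 2 had an unadjusted edgeR p below 0.05, with a median of -0.01, to be read against the same shares. Those 2 were Dyrk1a, a kinase with splicing factors among its substrates, at 64.2 ± 3.52 and 78.3 ± 4.97 CPM (edgeR adjusted p = 0.17), and Srrm1, an SR-related coactivator, at 52.8 ± 6.12 and 64.7 ± 6.5 CPM (edgeR adjusted p = 0.25).

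**Figure D4:**
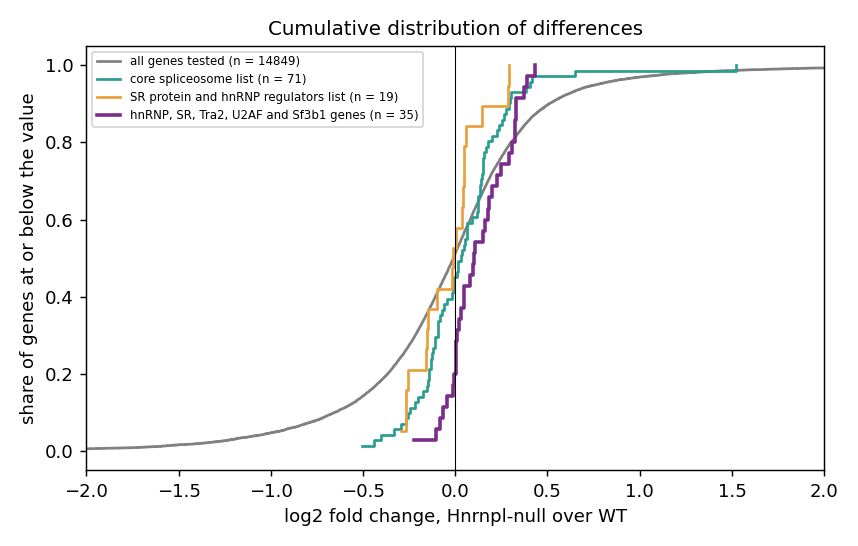
Cumulative share of genes (vertical axis) at or below each log2 fold change of Hnrnpl-null over WT (horizontal axis, shown from -2 to 2), for the 35 splicing protein genes, 71 core spliceosome genes, 19 regulators and all 14849 tested genes. The 35 genes (purple) span -0.22 to 0.44 with a median of 0.10, and they are themselves among all tested genes (grey).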

How the data were processed

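The 6 libraries share 1 deposited table of raw counts per gene, which per the file headers also lists exon positions and the exonic length of a gene. STAR 2.7.11a, HISAT2 2.2.1, featureCounts 2.0.6 and mm10 are named in the submitters' processing notes without role or order. For the annotation, the strand and the handling of multi-mapped reads, the setting was not given in the sources used here. Of the counts from 1 to 20, 93.4% to 98.4% per library were even, as when both mates of a pair are counted, so totals overstate fragments, and intervals cover the spread between libraries only.

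Counts were tested across all genes with edgeR 4.0.16 in R 4.3.3 (filterByExpr, TMM, glmQLFit, glmQLFTest), a two-sided test in a model of genotype alone. Calls used a Benjamini-Hochberg adjusted p below 0.05 over 14849 genes. Standard errors were derived from the F statistic. The scripts were tested on simulated data. Alternatives were DESeq2 1.42.0, limma 3.58.1 (voom), other scalings and filters, and leaving out libraries. Members and lists were chosen with earlier results of these data known. All 35 members are named, and of the 2 other splicing lists the 2 genes of smallest p each. Protein sequences and splicing were not analysed here.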

Additional observations from a re-analysis of the deposited data

How the results depend on the processing

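No member was called lower in any of 23 alternatives (19 planned, 4 added after seeing the data). These called 0.00673% to 3.35% of tested genes lower, and the one at an adjusted p below 0.01 reuses the main fit. Members called higher numbered 0 in 18 alternatives, including the 6 that left out 1 library. Those 18 called 0.0202% to 3.74% of tested genes higher. Members called higher numbered 2 with DESeq2 (4.33% of tested genes) and 2 with limma-voom (5.22%). On the 4 libraries left without both rich in Rn45s, they numbered 1 with edgeR (3.29%), 2 with DESeq2 (3.68%) and 2 with limma-voom (3.96%). The cause was not tested. A filter at a mean of at least 5 CPM, tested 34 members. For 32 of the 35 members no alternative gave a call. The members' median log2 fold change, 0.10, ran from 0.02 to 0.17. The sign of an uncalled estimate changed in at least 1 alternative for 19 members and in none for 16. The core spliceosome and regulator lists had 0 calls in each alternative. The alternatives called 0.0202% to 5.22% of tested genes higher and 0.00673% to 3.35% lower. Over all genes, 397 were called higher and 266 lower. The counts were 3 and 1 with library totals unscaled, 643 and 443 with DESeq2, 775 and 498 with limma-voom, 633 and 471 without a filter beyond 1 count in some library, 147 and 89 at an adjusted p below 0.01, 123 and 132 with Rn45s left out and totals unscaled, and 619 higher with limma-voom on the 4 libraries. Leaving out 1 library gave 145 to 532 higher and 104 to 321 lower, the highest numbers without Hnrnpl-null replicate 3 and at most 230 and 163 without any of the other 5. The share of higher among all calls was 59.9%, against 75.0% of 4 calls, 48.2% of 255 and, on the 4 libraries with totals outside Rn45s, 46.3% of 736. Libraries of the same replicate number were no more alike than others (correlations of -0.12, 0.09 and -0.09 for numbers 1 to 3, against -0.11 to 0.15 for different numbers). With 3 libraries per group and 1 in each rich in Rn45s, these correlations cannot decide whether the libraries were paired. With the replicate number as a block, 0 members were called, and 265 genes were higher and 179 lower. Hnrnpa1 had the widest interval, with 6 counts in 1 library, and the parts of depth and of shared exonic bases in that were not tested.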
